A study of Mus musculus with 2 samples.

Results

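The Mir26 and Mir101 families are 6 miRNA genes, chosen by name from the 2202 miRNA genes counted in each library: Mir26a-1, Mir26a-2 and Mir26b, and Mir101a, Mir101b and Mir101c. They were measured by microRNA-seq in the gastrocnemius, a hindlimb calf muscle, of male B6CASTF1/J mice, an F1 hybrid of the C57BL/6J and CAST/EiJ strains, at an age of 10 days. The series holds 1 group of 2 libraries, labelled biological replicates 1 and 2. The labels number the animals separately, give both the same donor entry, and name no treatment, transgene or deletion. The design therefore gives levels and the spread between 2 libraries, and no comparison of conditions. Whole muscle was used, so fewer cells of a type and less RNA per cell cannot be told apart.

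A miRNA gene is transcribed as a longer RNA, from which a hairpin and then a mature strand of about 22 nt are cut. The mature strand is loaded into an Argonaute protein and pairs with transcripts mainly through its seed, bases 2 to 8. Ezh2 is the histone methyltransferase of the Polycomb repressive complex PRC2, which holds muscle genes silent in dividing myoblasts and declines as they differentiate. In mouse myoblasts, miR-26a is known to lower Ezh2, and in human cancer cells miR-101 is known for the same. The Mir26 genes lie in genes of small phosphatases that act on the tail of RNA polymerase II.

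The mature sequences are shown first because they decide which reads could be assigned to which gene. They come from the RefSeq table of build GRCm38.p6, which held mature entries for 6 and hairpin entries for 5 of the 6 genes. Capitals mark the seed.
mmu-miR-26a-5p: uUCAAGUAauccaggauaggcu
mmu-miR-26b-5p: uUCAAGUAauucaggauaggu
mmu-miR-101a-3p: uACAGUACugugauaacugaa
mmu-miR-101b-3p: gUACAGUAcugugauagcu
mmu-miR-101c: aCAGUACUgugauaacuga

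The strands miR-26a-5p and miR-26b-5p have the same seed, UCAAGUA, and no other mature name in the RefSeq table has it. Counted from the 5′ end of miR-26a-5p, 2 of 21 aligned bases differ, C11U and C21U. The 3 miR-101 strands hold the same core but are annotated with different 5′ ends, so their seeds differ in register. The annotated start of miR-101b-3p lies 1 base before that of miR-101a-3p, and 17 of 18 aligned bases match, the difference being A16G of miR-101a-3p. The annotated start of miR-101c lies 1 base after it, and all 19 bases match. Of the opposite arms, miR-26a-1-3p and miR-26a-2-3p match at 16 of 22 bases, and miR-101a-5p and miR-101b-5p at 17 of 22.

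The hairpins of Mir26a-1 and Mir26a-2 share an unbroken stretch of 25 nt, given in capitals, that starts with the first base of miR-26a-5p. In Mir26b, capitals mark its longest stretch in common with Mir26a-1, 11 nt.
Mir26a-1: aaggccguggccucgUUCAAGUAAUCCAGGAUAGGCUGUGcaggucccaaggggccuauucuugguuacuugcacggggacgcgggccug
Mir26a-2: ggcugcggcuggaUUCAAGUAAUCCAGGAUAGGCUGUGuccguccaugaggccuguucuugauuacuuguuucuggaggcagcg
Mir26b: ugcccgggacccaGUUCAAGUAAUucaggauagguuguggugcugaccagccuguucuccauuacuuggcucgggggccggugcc

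In the Mir101 family, capitals mark the 19 nt that Mir101a and Mir101c have in common and, in Mir101b, the 20 nt that it has in common with Mir101a. The Mir101c hairpin is from the GENCODE M21 transcripts and is written with T.
Mir101a: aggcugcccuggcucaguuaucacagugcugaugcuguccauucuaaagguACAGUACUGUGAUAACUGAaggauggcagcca
Mir101b: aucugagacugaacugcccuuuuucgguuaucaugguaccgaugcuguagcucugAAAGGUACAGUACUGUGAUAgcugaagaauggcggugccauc
Mir101c: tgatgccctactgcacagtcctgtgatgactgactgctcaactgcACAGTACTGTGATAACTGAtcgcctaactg

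These overlaps bear on the counts, because the deposited tables count a read for a gene only where it matches 1 place in the genome. The whole of miR-26a-5p lies in the hairpins of both Mir26a-1 and Mir26a-2. A read that starts at its annotated 5′ end has to run 4 nt beyond its annotated 3′ end, or 1 nt before its 5′ end, to occur in a single annotated miRNA hairpin. The 3p strands of these genes occur in 1 hairpin each. The whole of miR-101c lies inside Mir101a, while miR-101a-3p, miR-101b-3p and both arms of Mir26b occur in 1 hairpin each. Of 301 genes that have a RefSeq mature entry and averaged 10 counts or more, 44 hold a mature sequence that also lies in another miRNA gene. The search covered annotated miRNA hairpins with exact matches and not the rest of the genome.

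The Mir26 genes lie in introns of related host genes. Mir26b lies at chr1:74394310-74394394 on the plus strand, in intron 4 of 6 of the longest coding transcript of Ctdsp1. Mir26a-1 lies at chr9:119031796-119031885 on the plus strand, in intron 5 of 7 of the longest coding transcript of Ctdspl. Mir26a-2 lies at chr10:126995530-126995613 on the plus strand, in intron 5 of 7 of the longest coding transcript of Ctdsp2 and inside exon 1 of 2 shorter transcripts of that gene. Each of these hosts is transcribed in the direction of its miRNA, and the next protein-coding gene on that strand is a villin-type actin-binding gene. It is Vil1 after Ctdsp1, at 12091 bp, Vill after Ctdspl, at 8780 bp, and Avil after Ctdsp2, at 734 bp.

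Mir101b lies at chr19:29135279-29135375 on the plus strand, in intron 8 of 8 of Rcl1, a gene of ribosomal RNA processing. Mir101a lies at chr4:101346945-101347027 on the minus strand and overlaps exon 2 of the long non-coding RNA E130102H24Rik. The next protein-coding genes on their strands are Jak2, 107899 bp after Rcl1, and Jak1, 81249 bp after E130102H24Rik, which both encode kinases of cytokine receptors. Mir101c lies at chr9:3038669-3038743 on the minus strand, with no annotated host. Within 50 kb of a member, the annotation has a single other miRNA gene, Mir546, at 2827 bp from Mir26a-2, with 1 count in each library.

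In replicate 1, 3999172 of 9678334 reads were assigned to a miRNA gene, and in replicate 2, 5062714 of 12889382. Reads that match several places made up 47.0% and 48.0% of all reads in replicates 1 and 2, and the tables do not say which miRNAs they come from. Levels are given as counts per 1000000 assigned counts (CPM), with the SD over 2 libraries, and were not divided by length, since a read stands for a mature strand. Intervals are exact (Clopper-Pearson) at 95%. For a count of 0, the limit given in place of an interval is 3 counts of the library's total. Both cover counting error only. The tissue label was checked against miRNAs of skeletal muscle. The 8 muscle genes took 10.1% of the assigned counts in replicate 1 and 8.81% in replicate 2, nearly all from Mir206, and each had a count in both libraries. Mir1a-1 and Mir1a-2 share 28 nt, and Mir133a-1 and Mir133a-2 share 31 nt, so their reads could match several places and go uncounted. The large part of Mir206 therefore holds for counted reads only. Of 6 neural genes, Mir124a-2, Mir124a-3 and Mir9-2 had 0 counts, and the 6 together reached 0.500 and 1.38 CPM. The Mir124a copies share 32 nt and the Mir9 copies 26 to 33 nt, so reads of their mature strands could match several places and go uncounted. These low values therefore cannot show that neural miRNAs were absent.

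Of the Mir26 genes, Mir26b held nearly all counts. It had 39486 counts in replicate 1 and 55350 in replicate 2, which are 9874 CPM (interval 9777 to 9971) and 10933 CPM (interval 10843 to 11024), or 10403 ± 749 CPM. Its rank among the 2202 genes was 21 in replicate 1 and 20 in replicate 2. The libraries thus placed it alike, with 0.863% of the table above it by mean level, and its intervals do not overlap between them.

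The genes of miR-26a were counted at far lower levels. Mir26a-2 had 71 and 89 counts in replicates 1 and 2, which are 17.8 CPM (interval 13.9 to 22.4) and 17.6 CPM (interval 14.1 to 21.6), or 17.7 ± 0.12 CPM. Mir26a-1 had 12 and 9 counts, which are 3.00 CPM (interval 1.55 to 5.24) and 1.78 CPM (interval 0.813 to 3.37), or 2.39 ± 0.86 CPM. Both genes were low in both libraries, and the intervals of Mir26a-1 overlap between the libraries. Within a library, Mir26b exceeded Mir26a-2 by 556-fold in replicate 1 (interval 441 to 712) and 622-fold in replicate 2 (interval 505 to 775). Mir26a-2 exceeded Mir26a-1 by 5.92-fold (interval 3.19 to 11.99) and 9.89-fold (interval 4.98 to 22.3).

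These ratios are between counted reads and not between miR-26a and miR-26b. The mature strand of Mir26b occurs in 1 hairpin and that of both Mir26a genes in 2, so a read of miR-26a-5p at its annotated length could be counted for neither Mir26a gene. The reads that match several places were 115 times the counts of Mir26b in replicate 1 and 112 times in replicate 2. How many of them are miR-26a was not tested. The tables do not separate the arms, so the counts of Mir26a-1 and Mir26a-2 can be 3p strands, which are unique to each hairpin, or longer or shifted 5p reads.

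**Figure D1:**
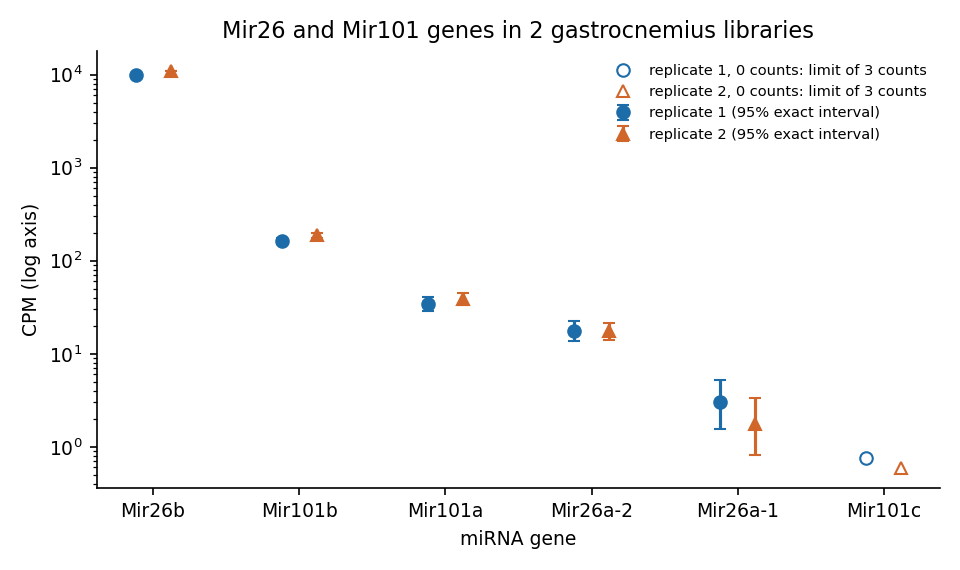
CPM (log axis) of the 6 genes in replicate 1 (circles) and replicate 2 (triangles), with exact 95% intervals of counting error; open symbols mark Mir101c, with 0 counts, at the limit of 3 counts. Mir26b stands at 9874 and 10933 CPM in replicates 1 and 2, and the order of the genes is the same in both libraries.

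In the Mir101 family, Mir101b had the highest counts. It had 654 counts in replicate 1 and 949 in replicate 2, which are 164 CPM (interval 151 to 177) and 187 CPM (interval 176 to 200), or 175 ± 17 CPM. Mir101a had 136 and 196 counts, which are 34.0 CPM (interval 28.5 to 40.2) and 38.7 CPM (interval 33.5 to 44.5), or 36.4 ± 3.3 CPM. Replicate 2 was the higher library for both genes, and the intervals of the libraries overlap for both, narrowly for Mir101b.

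The proportion of these 2 genes was nearly equal in the libraries. Mir101b made up 82.8% of the family in replicate 1 (interval 80.0 to 85.4) and 82.9% in replicate 2 (interval 80.6 to 85.0). Its ratio to Mir101a was 4.81-fold (interval 3.99 to 5.83) and 4.84-fold (interval 4.15 to 5.68). The mature strands of both occur in 1 hairpin, but a read of Mir101a trimmed to the 19 nt in common with Mir101c matches both. Mir101c had 0 counts in both libraries, and 3 counts, the limit that a 0 allows, would be 0.750 CPM for replicate 1 against 0.593 CPM for replicate 2. Its annotated mature strand lies wholly in Mir101a, so a read of that strand could be counted for neither gene. No count on the opposite strand was found at any of the 6 genes.

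The families differed in their share of the assigned counts. The Mir26 genes together took 0.989% of them in replicate 1 (interval 0.980 to 0.999) and 1.10% in replicate 2 (interval 1.09 to 1.10), or 1.04% ± 0.075. The Mir101 genes together took 0.0198% (interval 0.0184 to 0.0212) and 0.0226% (interval 0.0213 to 0.0240), or 0.0212% ± 0.0020. Mir26b alone was 99.8% of its family in both libraries. The shares can be too low where reads of a family match several places.

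By mean level, the order of the genes was Mir26b, Mir101b, Mir101a, Mir26a-2, Mir26a-1 and Mir101c, the same in each library. The exact intervals of neighbours in this order do not overlap in either library. The smallest ratio between neighbours was that of Mir101a to Mir26a-2, 1.92-fold in replicate 1 (interval 1.43 to 2.59) and 2.20-fold in replicate 2 (interval 1.71 to 2.86). Among all 2202 genes, the ranks by mean CPM were 20 for Mir26b, 148 for Mir101b, 209 for Mir101a, 235 for Mir26a-2 and 324 for Mir26a-1. Mir101c was among the 1506 genes with no count in either library. In all, 313 genes reached 10 counts in both libraries, among them Mir26b, Mir101b, Mir101a and Mir26a-2, while Mir26a-1 fell short in replicate 2.

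**Figure D2:**
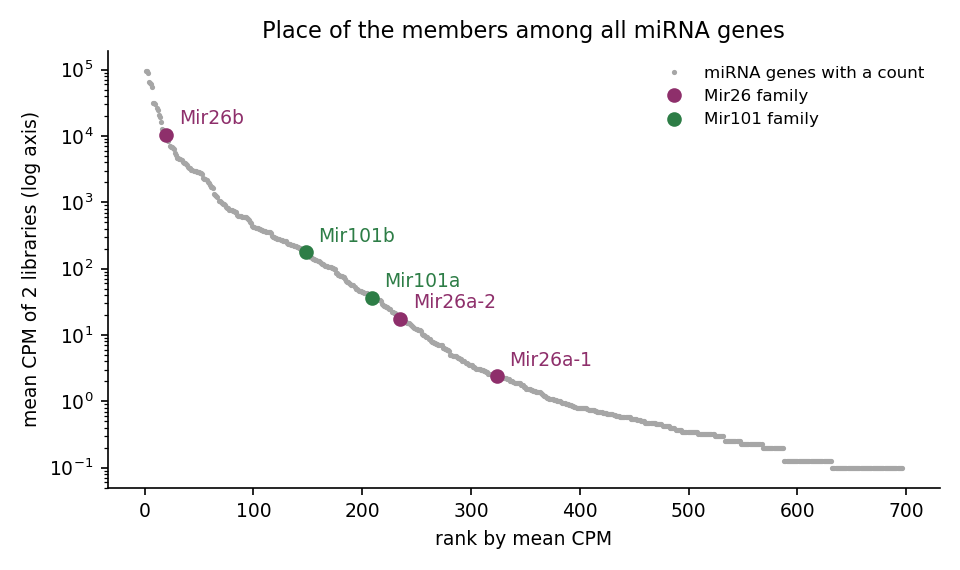
Mean CPM of the 2 libraries (log axis) against rank for the miRNA genes with a count, with the Mir26 genes and Mir101 genes marked. Mir26b sits at rank 20 near the top of the curve and Mir26a-1 at rank 324, while Mir101c has no count and is not drawn.

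The genes nearest to each member in level were taken by the distance of log2(CPM + 1) over the 2 libraries, and this likeness over so few libraries reflects level alone. Mir26b was nearest to Mir10b, at 10240 ± 106 CPM (distance 0.12), within the SD of Mir26b, and next to Mirlet7b (distance 0.18). Mir101b was nearest to Mir185, at 167 ± 18 CPM, and to Mirlet7f-1, at 176 ± 3 CPM. For Mir101a the nearest were Mir32, at 33.6 ± 2.2 CPM, and Mir187, at 38.5 ± 9.2 CPM. All 4 means lie within an SD of the member's. Mir26a-2 stood beside Mir701 and Mir181a-2, and Mir26a-1 beside Mir489 and Mir7051.

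Shared hairpin sequence was also measured for the whole table, leaving out partners annotated at the same place, such as those on the opposite strand. Of the 332 genes that averaged 10 counts or more, 79 share at least 20 nt with a miRNA gene elsewhere, and 34 of these 79 stood at 100 CPM or more. The median level of the 79 was 49.5 CPM, and that of the genes sharing less was 138 CPM. Mir26a-1 and Mir26a-2 (25 nt each) and Mir101a and Mir101b (20 nt each) are among the 79, and Mir26b (12 nt) is not. Mir101c shares 19 nt. The part of reads that match several genes in these levels was not tested.

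**Figure D3:**
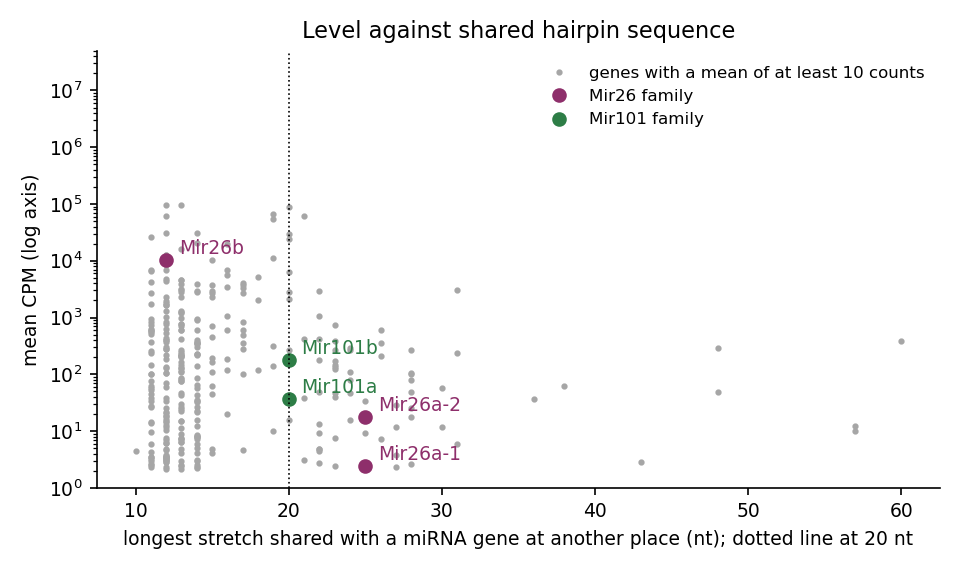
Mean CPM (log axis) against the longest stretch shared with an annotated miRNA gene at another place, in nt, for the 332 genes that averaged 10 counts or more, with members coloured and a dotted line at 20 nt. Mir26b lies left of the line at 12 nt, and Mir26a-1 and Mir26a-2 lie at 25 nt, at 2.39 and 17.7 CPM.

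Ezh2, the transcript for which both families are known, holds seed matches of both. Its longest annotated 3′ UTR, 402 nt on the minus strand of chromosome 6 (mm10, GENCODE M21), was searched on the sense strand for the complement of each seed. The match of miR-26 is TACTTGA and lies at position 248 (chr6:47530287-47530293). That of miR-101a is GTACTGT and lies at positions 59 (chr6:47530476-47530482) and 114 (chr6:47530421-47530427). Capitals mark the matches in these 27 nt windows.
Ezh2, miR-26: ttgaataaagaaTACTTGAacttgttg
Ezh2, miR-101a, position 59: caggaaccttgaGTACTGTgggcaatt
Ezh2, miR-101a, position 114: tgaatttgcaaaGTACTGTaacagtaa

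The miR-26 match is followed by A, as is the miR-101a match at position 114, and the match at position 59 is followed by G. The shifted seed of miR-101b, with the match TACTGTA, occurs at position 115 and overlaps the miR-101a match at 114. That of miR-101c, AGTACTG, occurs at 58 and 113, overlapping both. Among 15305 genes with a 3′ UTR of at least 402 nt, the first 402 nt held the miR-26 match in 2.85%, the miR-101a match in 2.71%, the miR-101b match in 3.33% and the miR-101c match in 2.23%. Both the miR-26 and the miR-101a match occurred in 14 genes, or 0.0915%, and in 1 of these, Ezh2, the miR-101a match occurred at 2 positions. The families were chosen for Ezh2, so the matches describe the known pairing, and Ezh2 itself was not measured in these libraries.

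The 3 host genes of the Mir26 family differ in such matches. The 3′ UTR of Ctdsp2, 3489 nt long, holds 1 miR-26 match at position 1080 (chr10:126997566-126997572). It is shown because it lies in a transcript that also carries Mir26a-2.
Ctdsp2, miR-26: aagtgttgctctTACTTGAtttgccaa

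Of 2030 genes with a 3′ UTR at least that long, 24.6% hold the miR-26 match in a window of that length. The 3′ UTRs of Ctdsp1, 1701 nt, and Ctdspl, 3349 nt, hold no TACTTGA, which says only that these letters are not there. Ctdspl holds 1 match of the miR-101b seed, a motif found in 25.3% of windows of its length.

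Beside the 6 members, 9 other miRNA genes reported to target Ezh2 in mammalian cells were listed. Mir26b stood above all 9. Its place depends on the list, which leaves out the let-7 genes, some above Mir26b in mean level (Mirlet7i, 66147 CPM) and some below (Mirlet7e, 2755 CPM). The nearest was Mir98, a relative of let-7, with 3258 and 3323 CPM in replicates 1 and 2. Next came Mir214, reported to lower Ezh2 in mouse muscle cells, with 1382 and 1027 CPM. Mir26b therefore exceeded Mir98 and Mir214 in each library, and replicate 1 was the higher library for Mir214 but not for Mir26b.

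Of the 9 listed genes, the next below Mir101b by mean level were Mir144, a miRNA of red blood cells, and Mir138-1. In replicates 1 and 2, Mir144 had 108 and 187 CPM, and Mir138-1 had 105 and 116 CPM. Mir138-2 (46.7 ± 7.7 CPM) stood just above Mir101a, and Mir217 (6.10 ± 2.26 CPM) between Mir26a-2 and Mir26a-1. Mir124a-1 had 0 counts in replicate 1 and 1 in replicate 2, and Mir124a-2 and Mir124a-3 had 0 in both. The copies of Mir124a share 32 nt and those of Mir138 share 24 nt, so their counts carry the same limit as those of the Mir26a genes. The 9 genes together took 0.490% of the assigned counts in replicate 1 and 0.471% in replicate 2, less than Mir26b alone. This sum also depends on the list, which leaves out the let-7 genes.

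**Figure D4:**
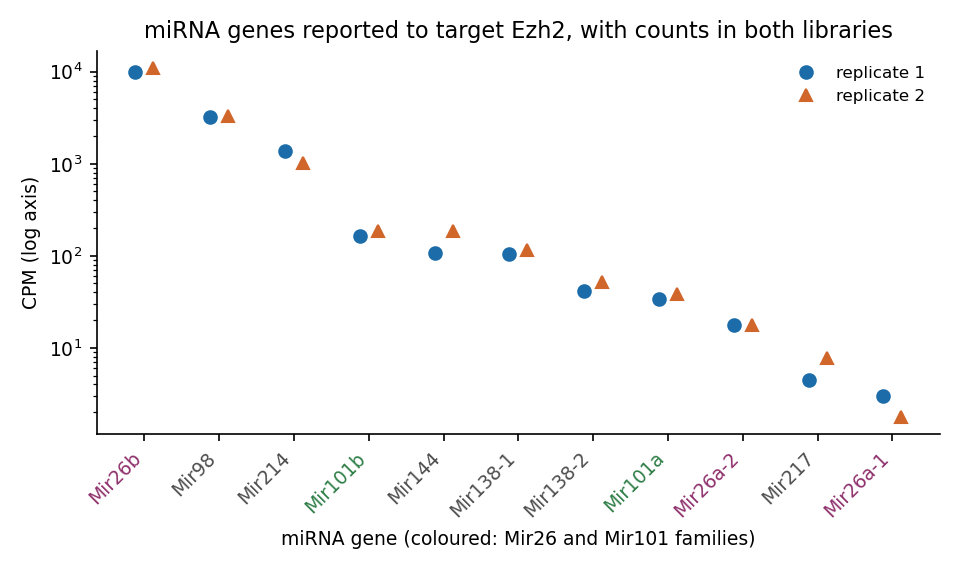
CPM (log axis) in replicate 1 (circles) and replicate 2 (triangles) of the members and the 9 listed genes, where both libraries had counts. Genes are ordered by mean, with Mir26 and Mir101 genes coloured on the axis. The list of genes reported to target Ezh2 leaves out the let-7 genes, some of which stood above Mir26b. Mir26b is highest of the genes drawn, at 9874 and 10933 CPM, ahead of Mir98 at 3258 and 3323 CPM.

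Between the libraries, Mir26b and Mir101b differed beyond counting error, and both were lower in replicate 1. The log2 ratio of replicate 1 over replicate 2, with TMM-scaled totals, was -0.22 for Mir26b (interval -0.24 to -0.20, exact binomial adjusted p = 4.22e-116). For Mir101b it was -0.27 (interval -0.41 to -0.12, exact binomial adjusted p = 0.00102). Mir101a had -0.26 (interval -0.58 to 0.06), Mir26a-2 -0.06 (interval -0.53 to 0.41) and Mir26a-1 0.68 (interval -0.69 to 2.11), and these 3 did not pass at exact binomial adjusted p = 0.209, 0.899 and 0.420. Mir101a and Mir101b had nearly equal ratios, and the smaller count of Mir101a gave it the wider interval.

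The background for these calls was high. Of 332 genes tested, 131 passed the exact binomial test, or 39.5%, with 12.3% higher and 27.1% lower in replicate 1, and of the 5 members tested 2 passed, both lower. The median log2 ratio of the 5 was -0.22, beside -0.02 over the 332 genes. This test compares 2 libraries and counts sampling error only. In edgeR's negative binomial exact test, the spread of the 2 libraries was taken into account (biological coefficient of variation 0.14). There, 6 of 332 genes passed, or 1.81%, and no member did, with 0 members also at an unadjusted p under 0.05. That spread was estimated over the tested genes from the same 2 libraries, treated as 1 group. It thus includes the difference under test, and this test cannot decide whether a member differed.

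Markers of cell types also varied between the libraries. Of all assigned counts, Mir126a of endothelium took 5.58% in replicate 1 and 6.79% in replicate 2, and Mir143 with Mir145a, both of smooth muscle, took 2.46% and 2.97%. The erythroid pair Mir451a and Mir144 took 0.168% and 0.409%, the hepatocyte Mir122 took 0.0103% and 0.0272%, and the 4 leukocyte genes took 0.0423% and 0.0447%. These summed shares were lower in replicate 1, but not every gene in them was, since Mir145a (641 and 589 CPM in replicates 1 and 2), Mir150 (115 and 106 CPM) and Mir223 (26.5 and 24.5 CPM) had the higher value there and did not pass the exact binomial test. Of the 8 muscle genes, 7 were tested. Mir206 passed and was higher in replicate 1, at 100599 CPM against 87446 CPM in replicate 2. Mir499, Mir486 and Mir1a-2 passed and were lower, and Mir133b, Mir133a-1 and Mir1a-1 did not pass. The median log2 ratio of the 7 was -0.17. The part of these genes in the ratios of Mir26b and Mir101b was not tested. Of the 9 other genes reported to target Ezh2, 6 were tested by the exact binomial test. Mir214 was higher in replicate 1, Mir98, Mir144, Mir138-1 and Mir138-2 were lower, and Mir217 did not pass. Over all 332 genes tested, 39.5% passed, with 12.3% higher and 27.1% lower in replicate 1.

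**Figure D5:**
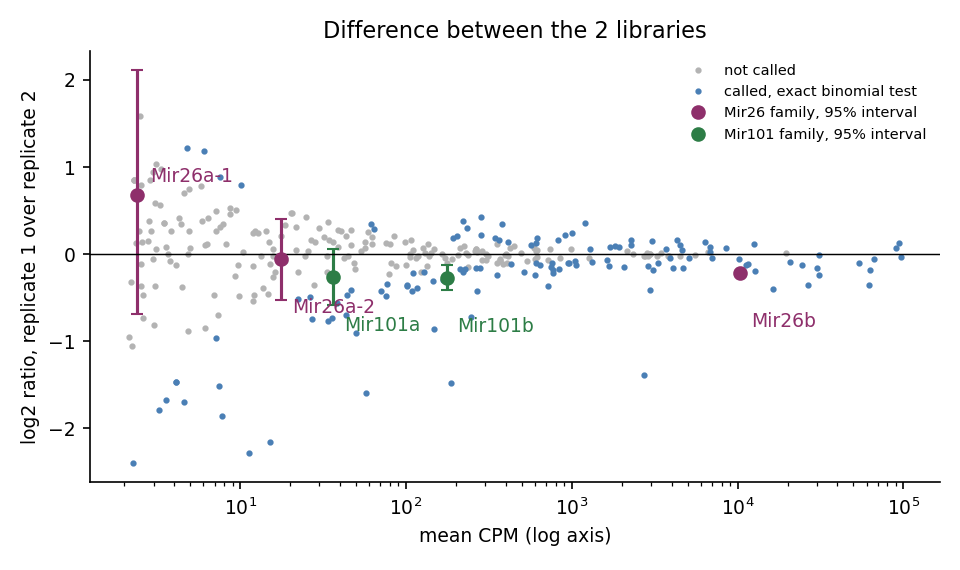
Log2 ratio of replicate 1 over replicate 2 against mean CPM (log axis) for the 332 genes tested, coloured by the exact binomial test, with members and their 95% intervals. Mir26b (-0.22) and Mir101b (-0.27) lie below 0, while the intervals of Mir101a, Mir26a-2 and Mir26a-1 include 0.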

How the data were processed

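The authors deposited raw read counts per miRNA gene for each library, on assembly mm10 with annotation GENCODE M21, per the metadata text deposited with the tables. For the aligner and counter, names and versions were not given in the sources used here. Column 3, the sense strand, was used, and its total is 5.53 times that of the opposite strand. The unstranded totals, 3286249 in replicate 1 and 4136934 in replicate 2, were below the sense totals, 3999172 and 5062714. The ratio therefore does not give the part of reads that come from the opposite strand. All 2202 identifiers were found in M21. Summary rows (unmapped, several matches, no gene) were left out of the totals. The members and lists were chosen with earlier results of these data known.

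From the deposited counts, CPM used plain totals. Library differences used a two-sided exact binomial test with TMM-scaled totals over genes that averaged 10 counts or more, with Benjamini-Hochberg adjustment at 0.05. The test was first checked on simulated counts with planted changes and counting error only, so the check does not cover further spread between libraries. Genes were named if they were members, miRNA genes within 50 kb, the 2 nearest in level, or listed. Mirlet7i and Mirlet7e fall outside this rule and were chosen after their values were seen. Exact binomial p-values set the difference between 2 libraries, which may be technical, against counting error only, and do not measure spread between animals. Alternatives were the unstranded column, all reads as denominator, DESeq2 size factors, plain totals, other count minimums, a negative binomial test, and other stretch and seed lengths. Software was Python 3.11.15, pandas 2.3.3, numpy 2.4.6, scipy 1.17.1, R 4.3.3, edgeR 4.0.16 and DESeq2 1.42.0.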

Additional observations from a re-analysis of the deposited data

Results flagged for a closer look

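Many reads could not enter the values of any member. Those that match several places were 47.0% of all reads in replicate 1, with an exact interval of 46.97 to 47.03, and 48.0% in replicate 2, with one of 47.97 to 48.02. They stand out because the tables hold them as a single number per library, outside every gene, and the part that belongs to miR-26a or miR-101c was not tested.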

How the results depend on the processing

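The family shares rest on the denominator. With the unstranded column, the Mir26 share was 1.27% and the Mir101 share 0.0259%, and with all reads as denominator they were 0.420% and 0.00852%. Leaving out a replicate gave 0.989% to 1.10% and 0.0198% to 0.0226%. Mir26b and Mir101b were also called with DESeq2 size factors, plain totals, both other count minimums and the unstranded column. In all, 132 of 332 genes were called with DESeq2 size factors and 141 of 332 with plain totals. The count minimums gave 116 of 696 (at least 1 count) and 122 of 254 (mean of at least 50), and the unstranded column 118 of 304. These settings share the exact binomial test and cover counting error only. With plain totals, Mir101b passed at exact binomial adjusted p = 0.0195. The negative binomial test, with its spread taken from the same 2 libraries, called 6 genes and 0 members. Plain totals gave 79 genes higher and 62 lower in replicate 1, against 41 and 90 with TMM, and reversed the sign of Mir26a-2 to a log2 ratio of 0.014. At least 18 nt or 22 nt of shared hairpin marked 5 or 2 members in place of 4. Matches of 8 letters ending in A kept 1 of 2 miR-101a matches in Ezh2 and 0 of 1 miR-26 match in Ctdsp2. No paired analysis was possible because the series holds 1 group, and without a replicate no test between libraries could be made. Below about 10 counts, as for Mir26a-1, depth limits what can be seen.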
